A study of Homo sapiens with 4 samples.

Results

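Cassette exons of CTNND1, ENAH, NUMB, SLK, EXOC7, TCF7L2, CSNK1G3 and SCRIB were examined in 293T cells. These 8 genes carry exons that epithelial and mesenchymal cells are known to splice differently. Every skipped exon event of these genes was taken from the deposited table, which gave 98 events. Of them, 94 events at 71 distinct exons reached 20 junction reads on average over the 4 libraries and were tested, out of 54503 tested events in 9999 genes and 65601 events in all. An event is 1 exon with 1 pair of neighbouring exons, so an exon can appear in several events that share reads.

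293T is a human embryonic kidney line that carries the SV40 large T antigen. One group of 2 samples is labelled as treated with an antisense oligonucleotide (ASO) against the small nucleolar RNA SNORD89, a gapmer with MOE ends given at 70 nM with Lipofectamine RNAiMAX. The other 2 samples are labelled as having no ASO. The transfection protocol in their labels is that of the treated samples, and no control ASO is named. Medium was changed at 24 h and polyA RNA was taken at 48 h in both groups. The labels call the samples biological replicates of 1 cell line. The table gives its libraries as a first and a second set of 2 and neither the table nor the labels used here say which set received the ASO. Directions are therefore given as first against second set, and the libraries are numbered only within a set.

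A cassette exon is either joined into the mRNA or skipped. Its inclusion level is the share of transcripts that include it, estimated here from reads across the inclusion and skipping junctions after dividing by the number of positions each could come from. During epithelial to mesenchymal transition a shared set of such exons switches, under RNA-binding proteins such as ESRP1, ESRP2, RBFOX2 and QKI. The switched exons often keep the reading frame and alter proteins of cell adhesion, the actin cytoskeleton and polarity. Of the 24 member exons with an event at a mean inclusion between 0.05 and 0.95, 15 (62.5%) had a length divisible by 3, against 4892 of 11264 such exons in the whole table (43.4%). The 95% Wilson interval of the member share, 42.7% to 78.8%, took in the share of the whole table. Overlapping versions of 1 exon, such as CTNND1 289 nt and 180 nt, were counted separately.

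The coding exons on which the account turns are shown first, because short exons such as these are the sequences that the cell adds or leaves out. They were read 5′ to 3′ on the coding strand from GENCODE release 29 transcripts (GRCh38), matched by gene, exon length and flanking intron lengths, while positions are hg19 (GRCh37) as deposited. ENAH 63 nt is the epithelial exon often called 11a and ENAH 57 nt the exon of the invasive isoform. In the SLK and EXOC7 exons capitals mark GCATG, the core of the element that RBFOX proteins bind. In the pair of TCF7L2 73-nt exons capitals mark the positions at which the 2 sequences carry the same base.
ENAH 63 nt: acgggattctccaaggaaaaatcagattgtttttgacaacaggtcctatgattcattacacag
ENAH 57 nt: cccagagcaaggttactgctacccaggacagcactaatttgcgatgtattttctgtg
SLK 93 nt: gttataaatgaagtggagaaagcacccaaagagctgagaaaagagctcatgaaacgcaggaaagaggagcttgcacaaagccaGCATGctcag
EXOC7 69 nt: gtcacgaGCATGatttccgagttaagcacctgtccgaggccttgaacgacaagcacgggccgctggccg
EXOC7 93 nt: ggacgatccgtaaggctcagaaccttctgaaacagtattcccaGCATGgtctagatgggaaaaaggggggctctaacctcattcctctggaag
NUMB 33 nt: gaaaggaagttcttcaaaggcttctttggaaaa
CTNND1 72 nt: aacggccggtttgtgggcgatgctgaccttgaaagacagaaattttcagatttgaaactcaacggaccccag
CTNND1 18 nt: atgagtggttctccagag
CSNK1G3 24 nt: ctgccagaaagtgttgaacatgtg
TCF7L2 51 nt: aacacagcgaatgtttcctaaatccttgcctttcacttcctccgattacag
TCF7L2 upstream 73 nt: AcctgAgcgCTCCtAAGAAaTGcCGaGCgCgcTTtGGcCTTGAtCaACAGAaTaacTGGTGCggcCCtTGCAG
TCF7L2 downstream 73 nt: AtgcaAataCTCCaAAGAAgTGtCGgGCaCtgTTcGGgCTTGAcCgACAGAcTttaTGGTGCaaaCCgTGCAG

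GCATG was searched on the coding strand only, since the element acts in RNA. It was found once in each of the SLK 93-nt, EXOC7 69-nt and EXOC7 93-nt exons and in none of the other exons printed. Among distinct internal exons of protein-coding transcripts of the same length, 7.27% of 1554 exons of 93 nt and 3.89% of 1183 exons of 69 nt held it. The introns beside the exons, where such elements also lie, were not read. The upstream and downstream TCF7L2 73-nt exons carried the same base at 47 of 73 positions (64.4%).

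The sum of junction reads over all events ran from 38613055 in library 1 of the first set to 43929373 in library 2 of the second set. Library 2 of the second set stood apart from the others. Over 13401 events with mean inclusion between 0.05 and 0.95, called alternative here, its median absolute difference in inclusion from another library was 0.0828 to 0.0876, against 0.0494 to 0.0577 among the other 3 libraries. Of 12 epithelial markers, 3 had events, with a summed level of 1.05 to 1.97 RPM over the 4 libraries, where RPM is junction reads of a gene's deepest event per 1000000 junction reads of the library. KRT8 was at 0.596 and 0.82 RPM in the first set, against 0.793 and 1.14 in the second. RBM47 and ESRP2 were lower in the second set. RBM47 was at 0.751 and 0.974 against 0.163 and 0.228, and ESRP2 at 0.233 and 0.179 against 0.0933 and 0. Of 11 mesenchymal markers, 5 had events, with a summed level of 118 to 135 RPM, of which VIM gave 99.9 to 127. VIM was higher in the second set, while the other 4 were lower there: CDH2 was at 15.9 and 11.6 RPM in the first set, against 3.43 and 5.37 in the second, and ZEB1 at 2.25 and 1.56 against 0.443 and 0.182. ZEB2 was at 1.01 and 0.872 against 0.233 and 0.273, and FN1 at 3.57 and 2.69 against 2.17 and 2.53. Of the 5 markers of the kidney and neural lineage of 293T, PAX2 and EYA1 had events, all under the read minimum. Of the 3 blood markers looked up, none had a skipped exon event. Only genes with a cassette event are seen in this way.

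In the authors' deposited table, 9 of the 94 member events (9.57%) had an FDR under 0.05 with a difference in inclusion of at least 0.1, against 1477 of 54503 tested events (2.71%). The calls fell in CTNND1, TCF7L2 and CSNK1G3, each with 3 events. The 9 events lie at 8 exons, and pairs among them share skipping or inclusion reads, so they are not 9 separate observations. Inclusion was higher in the first set at 3 of them, with 1.34% of all events called in that direction, and lower at 6, with 1.37% of all events called in that direction. At any size of difference, 12 member events had an FDR under 0.05 (12.8%), against 5.72% of all events. Alternative events are called more often: 9 of the 32 alternative member events were called (28.1%), against 11.0% of all alternative events. The members were chosen with earlier results of these data known. How far that choice bears on these shares was not tested.

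A model fitted here to the reads of all libraries gave no call among the members. In this quasi-binomial model of the reads, 0 of 94 member events had an adjusted p under 0.05, against 2 of all tested events (0.00367%), and the smallest adjusted p of a member event was 0.857. With so few calls in all, the 0 among the members says nothing about them. Member events with a quasi-binomial p from 0.033 (SCRIB 81 nt) to 0.607 (NUMB 105 nt) shared the adjusted p of 0.857. That value therefore does not tell 1 exon from another. At an unadjusted p under 0.05 the model gave 4 member events (4.26%), against 3.45% of all events, and a limma fit of log2 inclusion over skipping reads gave 4 member events without adjustment (4.26%, against 4.87% of all events). With adjustment that fit called 0 of all 54503 events, so its 0 among the members says nothing about them. Limma with precision weights gave 8 member events without adjustment (8.51%, against 9.92% of all events) and 0 with it, against 358 of all events (0.657%), and the smallest adjusted p of a member event was 0.0948. The 2 sets did not overlap at 15 of the 32 alternative member events (46.9%), against 33.2% of all alternative events.

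**Figure D1:**
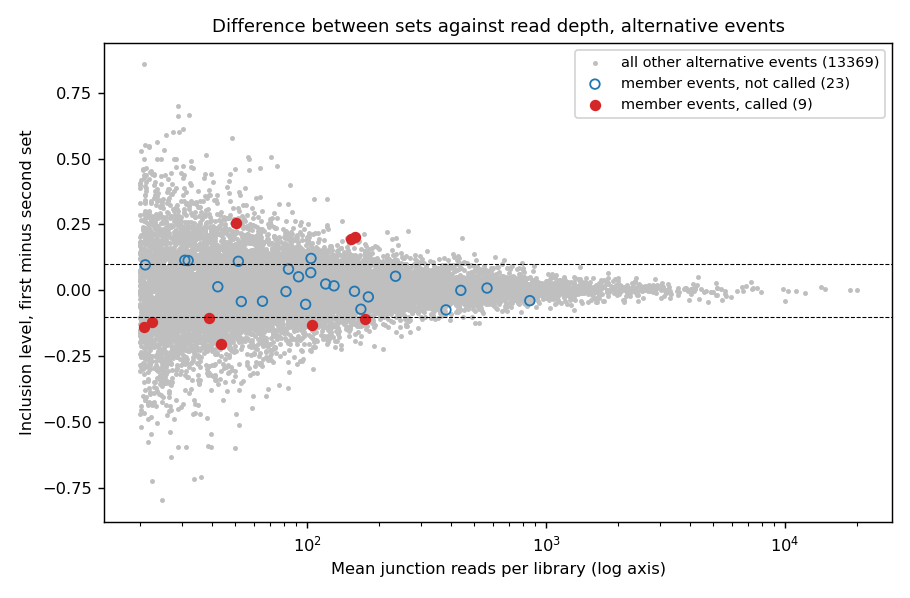
Each point is 1 alternative event, with its mean junction reads per library on a log axis and its difference in inclusion level, first minus second set. Dashed lines mark differences of 0.1 in either direction. The 9 called member events (red) had a median of 50.25 mean reads, against 101 for all 32 alternative member events, and points of both kinds lie within the spread of the other events at the same depth.

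CTNND1 encodes p120-catenin, which holds cadherins at the cell surface. Its early exons decide which start codon is used: with them the long forms typical of mesenchymal cells are made, and without them shorter forms typical of epithelial cells. The 289-nt exon at chr11:57558857-57559145, partly coding in CTNND1-201, was included at 0.646 (0.576 to 0.71, the 95% Wilson interval of its reads) and 0.732 (0.653 to 0.799) in the first set, against 0.474 (0.344 to 0.607) and 0.497 (0.401 to 0.593) in the second. Both libraries of the first set were higher, and the 2 sets did not overlap. The authors' deposited table puts the difference at 0.204 (FDR 0.0144), while the quasi-binomial model gave p = 0.0364 and adjusted p = 0.857.

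A 180-nt version of the same exon, which ends at the same base but begins farther 3′ at chr11:57558966-57559145, shares its skipping reads (56, 32, 20 and 38) with the 289-nt version. It was included at 0.629 and 0.721 in the first set, against 0.467 and 0.497 in the second. The authors' deposited table puts its difference at 0.193 (FDR 0.0262), largely from the same reads. Another event of the 289-nt exon, with a longer exon upstream and few skipping reads, gave levels of 0.97 and 0.932 against 0.854 and 1, and there the sets overlapped. Over all events of the exon the mean difference was 0.114.

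The next exon, 72 nt long and coding in CTNND1-201 (chr11:57561482-57561553), differed in the other direction. Beside the 289-nt exon it was included at 0.794 (0.739 to 0.839) and 0.874 (0.814 to 0.916) in the first set, against 0.938 (0.834 to 0.978) and 0.946 (0.854 to 0.981) in the second, where only 3 reads per library skipped it. The sets did not overlap, but the levels lay close. The authors' deposited table puts the difference at -0.108 (FDR 0.014). Without library 1 of the first set the difference was -0.0683, under the threshold of 0.1. With the exon farther upstream as its neighbour, the same 72-nt exon was included at 0.702 and 0.657 in the first set, against 0.946 and 0.52 in the second, so that the sets overlapped and the second set held both the highest and the lowest library. The 119-nt untranslated exon upstream (chr11:57556509-57556627) was included at 0.939 and 0.929 against 0.978 and 1, and its difference in the authors' deposited table, -0.055 (FDR 0.0198), was too small to be called. Measured against joining of the first exon straight past the 72-nt exon, the 119-nt exon was at 0.761 and 0.705 against 0.923 and 0.51.

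The other cassette exons of CTNND1 were nearly fixed. The 18-nt exon, within the part that codes for the armadillo repeats, was included at 0.0345, 0, 0.0131 and 0.00859, with 0 of 157 inclusion reads in library 2 of the first set, which allows a level of up to 0.0171. A 63-nt exon near the 3′ end was included at 0.972 to 0.991 in every library. These intervals and limits cover counting error only.

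TCF7L2 is a transcription factor at the end of the Wnt pathway, and the exons near its 3′ end are joined in many combinations. The 73-nt exons each code for most of the C-clamp, an additional DNA-contacting element found in the long forms. The 51-nt exon (chr10:114918426-114918476) precedes both. Where it was spliced to the upstream 73-nt exon, it was included at 0.808 (0.691 to 0.888) and 0.788 (0.639 to 0.887) in the first set, while both libraries of the second set were at 1, with 0 skipping reads of 24 and of 30. A count of 0 there allows levels down to 0.839 and 0.87, still above both levels of the first set. This event had the lowest FDR of the tested member events in the authors' deposited table, 0.000414 (difference -0.202), and the quasi-binomial model gave p = 0.0418 and adjusted p = 0.857.

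Where the 51-nt exon was spliced to the downstream 73-nt exon, the levels were 0.957 and 0.766 in the first set, against 1 in both libraries of the second, from a mean of 20.75 reads. The authors' deposited table puts the difference at -0.139 (FDR 0.0277). Without library 2 of the first set it was -0.0428. Where it was spliced straight to the last exon, the event with most reads, its levels were 0.61, 0.623, 0.619 and 0.699. The sets overlapped there, and the difference in the authors' deposited table was -0.042 (FDR 1). The 51-nt exon was thus called in its joining to the 73-nt exons and not in its joining to the last exon. Whether these 3 differences differ from each other was not tested.

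The upstream 73-nt exon (chr10:114919679-114919751) was included between the 51-nt and the last exon at 0.716 (0.574 to 0.825) and 0.653 (0.481 to 0.792) in the first set, against 0.538 (0.384 to 0.685) and 0.323 (0.226 to 0.437) in the second. The sets did not overlap, and the lowest level was in library 2 of the second set. It had the largest deposited difference among the tested member events, 0.254 (FDR 0.0488, just under the threshold) per the authors' deposited table. Leaving out library 1 or library 2 of the second set gave 0.361 and 0.146. Between the 49-nt exon and the last exon its levels were 0.425 and 0.502 against 0.379 and 0.321, which lay in the same direction (FDR 0.795 per the authors' deposited table).

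The downstream 73-nt exon (chr10:114920378-114920450) was a minor form, included after the upstream one at 0.121 and 0.188 in the first set, against 0.0805 and 0 in the second. The 0 of 17 inclusion reads in library 2 of the second set allows a level of up to 0.126, which takes in one level of the first set. The 69-nt exon near the 5′ end (chr10:114724315-114724383) was included at 0.0865 and 0.137 against 0.284 and 0.023. Its highest and its lowest level were both in the second set. A 141-nt exon was at 0.0872 and 0.026 against 0 and 0, where 0 inclusion reads of 34 and of 26 allow levels of up to 0.0474 and 0.0628, a difference of 0.056 (FDR 0.00969) per the authors' deposited table, under the size required. A 144-nt version of it, with the same skipping reads, was at 0.0765 and 0.0194 against 0.0565 and 0, where the sets overlapped.

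CSNK1G3 is a membrane-bound casein kinase of the gamma group, which phosphorylates Wnt co-receptors. Its 24-nt exon (chr5:122941033-122941056, coding, exon 12 of CSNK1G3-201) was included at 0.152 (0.105 to 0.214) and 0.0888 (0.0514 to 0.149) in the first set, against 0.287 (0.194 to 0.402) and 0.217 (0.144 to 0.314) in the second. Both libraries of the second set were higher. The authors' deposited table puts the difference at -0.132 (FDR 0.0368), and the quasi-binomial model gave p = 0.0808 and adjusted p = 0.857. Without library 1 of the second set the difference was -0.097, just under the threshold.

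The other calls in CSNK1G3 rested on 1 library. The 425-nt exon (chr5:122881111-122881535) was included at 0.787 in library 1 of the first set and at 1 in the other 3, with 10 skipping reads in the first and 0 in the others. The 41-nt exon (chr5:122888801-122888841) was at 0.758 in library 1 of the first set and at 1 in the other 3. Both events are skipped through the same junction, so the 10 skipping reads are the same reads. The 2 calls are therefore not separate observations. In the authors' deposited table these differences were -0.107 (FDR 0.0239) and -0.121 (FDR 0.0116), although the sets overlapped at both. Without library 1 of the first set both differences were 0. The deeper events of the same exons gave 1, 1, 0.857 and 1 for the 425-nt exon and 0.969, 1, 1 and 1 for the 41-nt exon, and were not called. The 96-nt coding exon (chr5:122930733-122930828) stayed low, at 0.192 and 0.183 against 0.146 and 0.126 (FDR 0.667 per the authors' deposited table). The 70-nt coding exon was at 1 and 0.893 against 0.866 and 1, where each set held a library at 1.

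**Figure D2:**
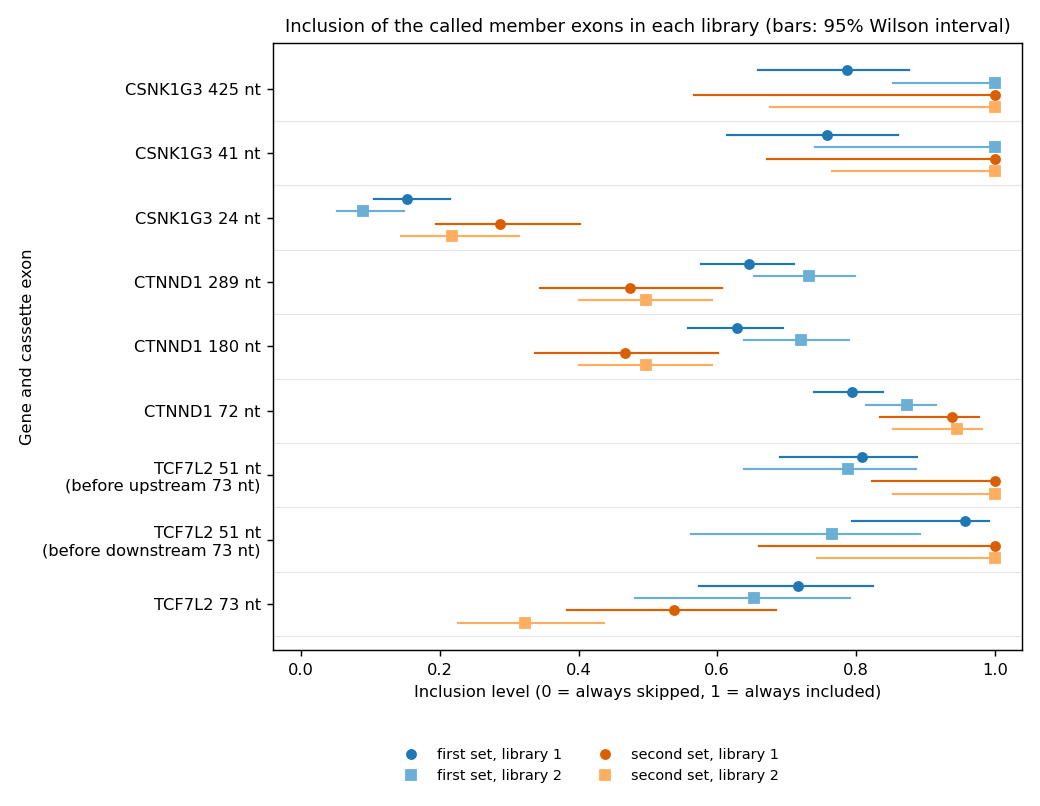
Inclusion level of each called member event in the 4 libraries, from 0 (always skipped) to 1 (always included). Points are libraries, blue for the first set and orange for the second, and bars are 95% Wilson intervals of the read counts. The sets do not overlap at 7 of the 9 events (77.8%, against 79.1% of all called events), and the 425-nt and 41-nt exons of CSNK1G3 differ through 1 library, at 0.787 and 0.758.

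ENAH (Mena) lengthens actin filaments at the cell edge, and none of its 7 tested events was called. The epithelial 63-nt exon (chr1:225692693-225692755) was included at 0.0341 (0.0249 to 0.0465) and 0.0297 (0.0194 to 0.045) in the first set, against 0.0204 (0.00933 to 0.0438) and 0.0533 (0.0342 to 0.0822) in the second. It was a minor form in every library, and the second set spanned the first. The 57-nt exon of the invasive isoform (chr1:225723209-225723265) was as rare, at 0.0282, 0.0218, 0.0227 and 0.0577. In both exons library 2 of the second set was the highest.

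A 111-nt coding exon of ENAH (chr1:225704898-225705008) was included at 0.887 (0.866 to 0.906) and 0.867 (0.84 to 0.89) in the first set, against 0.854 (0.804 to 0.893) and 0.979 (0.953 to 0.991) in the second. Its 795-nt version, which ends at the same base on the 3′ side and shares the skipping reads, was at 0.732, 0.712, 0.649 and 0.944. Only library 2 of the second set was higher, with 5 skipping reads against 33 to 104 in the other libraries, and the intervals of that library did not meet those of the others. Without library 1 of the second set, so that the lone library 2 was assumed to vary like the first set, the quasi-binomial adjusted p was 0.0252 for the 111-nt and 0.0368 for the 795-nt version. With all libraries or under the other alternatives it was 0.788 to 1 for the 111-nt version and 0.84 to 1 for the 795-nt version.

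SLK, a kinase that acts on actin stress fibres and focal adhesions, had 6 tested events, of which 5 were above a mean inclusion of 0.95 and 1 was under 0.05. Its 93-nt cassette exon (chr10:105770574-105770666, exon 13 of SLK-202) was included at 0.00733 and 0.00876 in the first set, from 3 inclusion reads in each library. In the second set there were 0 inclusion reads of 113 and of 175, which allows levels of up to 0.0165 and 0.0106. A difference between sets was not detectable at this depth.

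SCRIB is a scaffold of the basolateral polarity complex, and its 23 tested events included 20 with a mean inclusion above 0.95. The 63-nt exon (chr8:144889722-144889784, exon 16 of SCRIB-201) was included at 0.934 and 0.938 against 0.915 and 0.939. The 38-nt exon (chr8:144874046-144874083) was at 0.936 and 0.94 against 0.932 and 0.945. At both, the intervals of the 4 libraries overlapped. The 75-nt exon was a minor form at 0.0445, 0.0118, 0.00817 and 0.0559, where the sets overlapped. An 81-nt exon (chr8:144887104-144887184) was at 0.995 and 1 against 0.978 and 0.943, a difference of 0.037 (FDR 0.0159) per the authors' deposited table, too small to be called. Beside another neighbouring exon, from 295.5 mean reads, the 81-nt exon was at 0.995 and 1 against 1 and 1. The deposited difference there was -0.002.

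EXOC7 encodes the exocyst subunit Exo70, whose epithelial and mesenchymal forms differ in how they act on actin. Its cassette exons lie side by side between the same outer exons, and none of its 4 alternative events was called. The 93-nt exon (chr17:74087224-74087316) was included at 0.346 and 0.381 in the first set, against 0.34 and 0.28 in the second, so that the sets did not overlap. The 69-nt exon (chr17:74086410-74086478), measured with the 93-nt exon absent, was at 0.159 and 0.112 against 0.164 and 0.115. Measured beside the 93-nt exon it was used more, at 0.48 and 0.373 against 0.385 and 0.333, and a 153-nt version that runs farther 5′ was at 0.245 and 0.187 against 0.217 and 0.224. Both GCATG-bearing exons of this gene were thus intermediate, whereas the SLK exon with the same letters was almost always skipped. In the authors' deposited table the FDR of these 4 events ran from 0.536 to 1.

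NUMB is an endocytic adaptor that opposes Notch signalling, and its 33-nt and 144-nt exons lengthen the phosphotyrosine-binding domain and the proline-rich region. The 144-nt exon (chr14:73745989-73746132, exon 9 of NUMB-201) was included at 0.389 (0.328 to 0.452) and 0.405 (0.34 to 0.474) in the first set, against 0.42 (0.348 to 0.495) and 0.425 (0.341 to 0.513) in the second. The difference was -0.025 (FDR 1) per the authors' deposited table, and all 4 intervals overlapped. The 33-nt exon (chr14:73783098-73783130) was at 0.507 (0.43 to 0.585) and 0.436 (0.346 to 0.531) against 0.54 (0.425 to 0.651) and 0.161 (0.0992 to 0.251). Here library 2 of the second set was the lowest and library 1 of the same set the highest.

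The difference between the 2 libraries of the second set at the 33-nt exon, 0.379, was larger than that between the sets, 0.121 in the authors' deposited table (FDR 0.78). Without library 1 of the second set the quasi-binomial adjusted p was 0.031, and under the other settings it was 0.548 to 1. The 85-nt untranslated exon of NUMB (chr14:73833605-73833689) was included at 0.613 and 0.746 against 0.718 and 0.785, with overlapping sets, and a 147-nt coding exon was at 0.964 and 0.958 against 0.925 and 0.837. With the 147-nt exon skipped, the 144-nt exon was at 0.933 and 0.942 against 0.866 and 0.79 (difference 0.109, FDR 0.309 per the authors' deposited table).

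**Figure D3:**
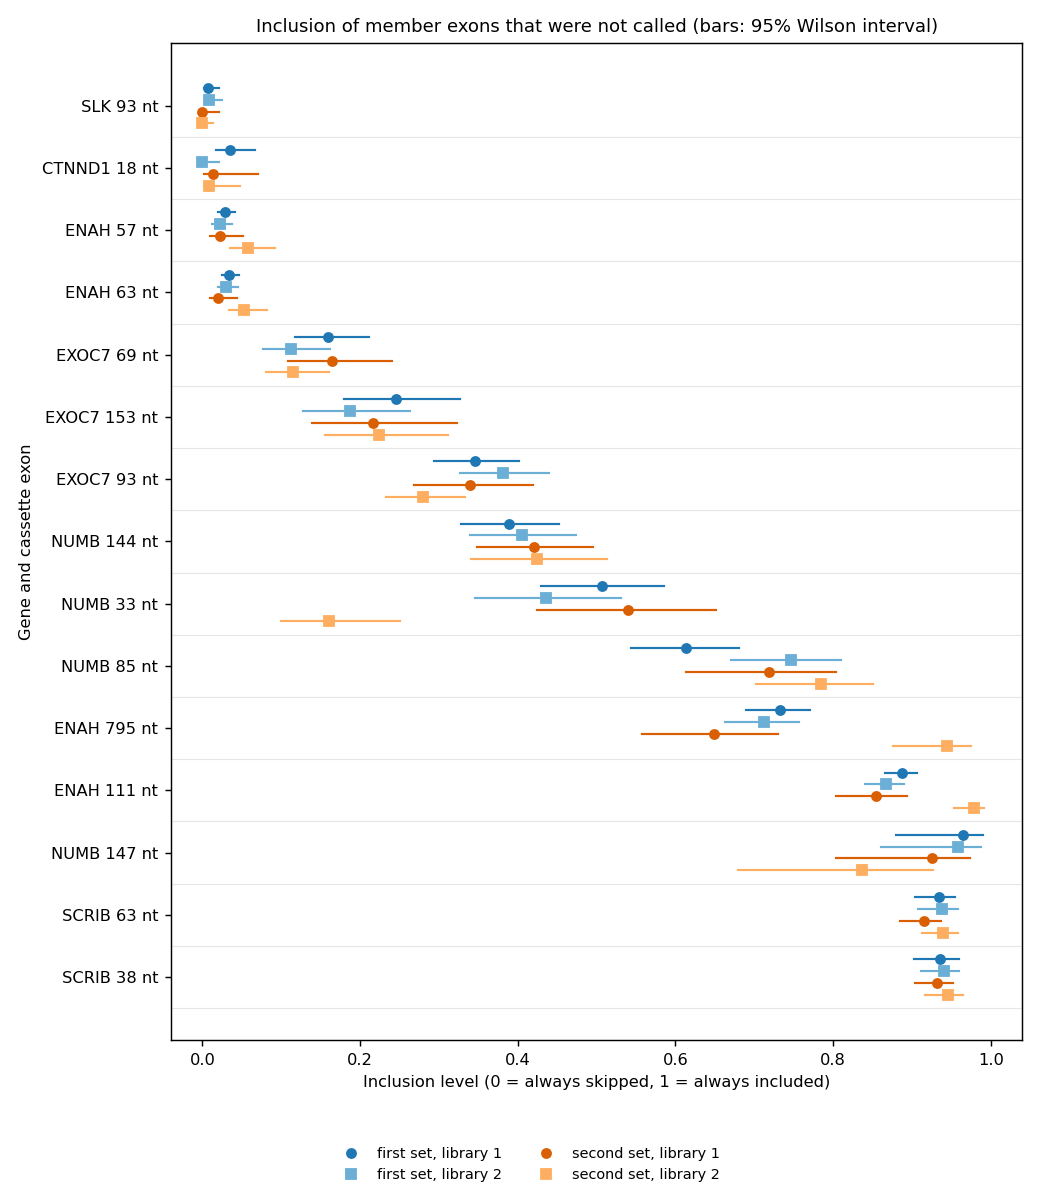
Inclusion level of 15 member exons of 6 genes, none of them called, from 0 (always skipped) to 1 (always included), each by its deepest event, with points and 95% Wilson intervals as for the called exons. The ENAH 63-nt and 57-nt, SLK 93-nt and CTNND1 18-nt exons stay under 0.06 in every library, and library 2 of the second set is apart at NUMB 33 nt (0.161) and ENAH 111 nt (0.979).

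Across all 94 member events, 32 were alternative (34%, interval 25.3% to 44.1%), 53 had a mean inclusion above 0.95 and 9 one under 0.05. Of the nearly always included events, 20 were in SCRIB, 8 in NUMB, 7 in EXOC7, 6 in CTNND1, 5 in SLK, 3 in ENAH and 2 each in CSNK1G3 and TCF7L2, with mean inclusion from 0.961 upwards and deposited differences of at most 0.072 in either direction in the authors' deposited table. Of the nearly always skipped events, 2 were in ENAH, 2 in TCF7L2 and 1 each in CTNND1, EXOC7, NUMB, SCRIB and SLK. The 4 events under the read minimum, 2 in CTNND1 and 2 in TCF7L2, had 2.5 to 19.25 mean reads. Over all tested events of the series, 24.6% were alternative. The median absolute difference between sets was 0.0731 over the 32 alternative member events and 0.0552 over all alternative events, and their median signed difference was 0.00419 against 0.00428. The largest gap between the 2 libraries of a set was wider in the second set for 6 genes: CTNND1 (0.426, against 0.0914 in the first), NUMB (0.379 against 0.133), ENAH (0.295 against 0.0201), TCF7L2 (0.26 against 0.191), SCRIB (0.119 against 0.0327) and SLK (0.0588 against 0.0361). It was wider in the first set for CSNK1G3, at 0.242 against 0.143 in the second, and for EXOC7, at 0.107 against 0.0593.

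The depth behind these levels differed between the sets. At the deepest event of each gene, ENAH had 39.8 and 28 RPM in the first set, against 8.63 and 9.58 in the second, a log2 ratio of 1.89. TCF7L2 had 4.04 and 3.28 against 0.933 and 1.07, a log2 ratio of 1.87. Both genes were thus read less in both libraries of the second set. The log2 ratio was 1.37 for SLK, 1.25 for NUMB, 1.03 for CSNK1G3, 0.99 for CTNND1 and 0.38 for EXOC7. For SCRIB it was -0.17, with 48.4 and 63.8 against 69.3 and 56.8 RPM, and the sets overlapped. Over 9999 genes the median of this log2 ratio was 0.27, with quartiles of -0.09 and 0.79, so 7 of the 8 genes lay above the median, and 4.3% and 4.56% of genes had a higher ratio than ENAH and TCF7L2. Junction reads of 1 event follow both the amount of the mRNA and the reads that can span it, and in bulk RNA fewer expressing cells and less RNA per cell cannot be told apart. Whether the lower depth of the second set plays a part in the calls was not tested.

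**Figure D4:**
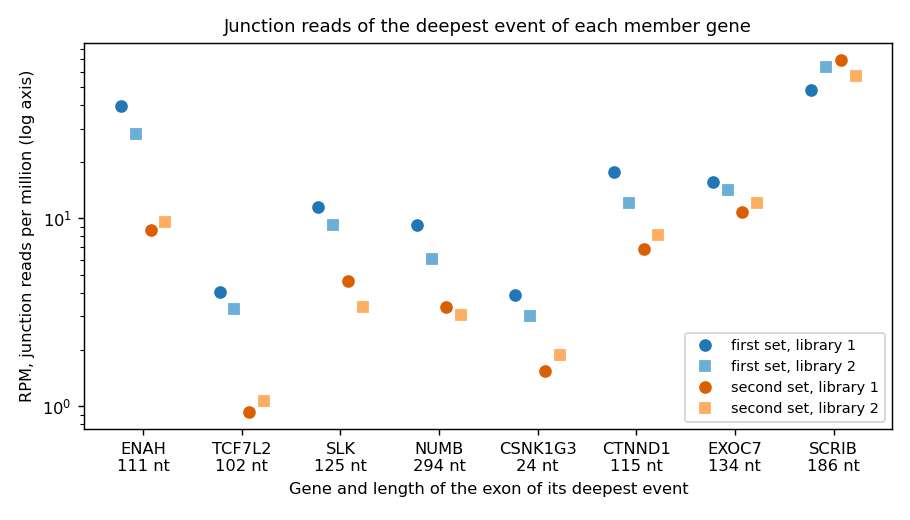
RPM on a log axis at the deepest event of each member gene, in order of the ratio between sets. Points are libraries, blue for the first set and orange for the second. ENAH lies at 28 to 39.8 in the first set and 8.63 to 9.58 in the second, and the sets overlap for SCRIB only.

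Of 35 other genes with exons known to switch between epithelial and mesenchymal cells, 32 had tested events. Of their 284 events, 12 in 10 genes were called in the authors' deposited table (4.23%, against 2.71% of all events), 7 higher in the first set and 5 lower. None passed the quasi-binomial threshold, which only 2 of all tested events passed. The median difference over their 80 alternative events was -0.0014. The list of these genes, too, was chosen with earlier results of these data known. FGFR2, whose mutually exclusive exons are the classical epithelial and mesenchymal marker, had 7 tested events and 0 calls, and CD44 had only 1 event, under the read minimum. Only skipped exon events were read, and whether those of FGFR2 take in its mutually exclusive exons was not examined. Genes with called events included RALGPS2, ARHGEF11, PLEKHA1, GIT2, PARD3, KIF13A, SPAG9, FNIP1 and ARFGAP2.

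The 120-nt exon of ARHGEF11, a protein of cell junctions, was included at 0.587 and 0.388 in the first set, against 0.735 and 0.863 in the second, a difference of -0.311 (FDR 0.00418) per the authors' deposited table. The 93-nt exon of RALGPS2, an exchange factor for Ral, was at 0.923 and 0.84 against 0.381 and 0.458, but library 1 of the second set had 2 reads there. Limma with precision weights gave the RALGPS2 exon an adjusted p of 0.049, where 0.657% of all tested events were under 0.05. Calls in SPAG9 (95 nt) and PARD3 (111 nt) rested on library 2 of the second set, at 0.716 and 0.753, where the other 3 libraries were at 1. Without that library the differences of both were 0, and the ARFGAP2 132-nt exon fell to 0.085.

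The deepest alternative exons of the 6 genes with most reads were not called. The 57-nt exon of CLSTN1 was included at 0.783, 0.766, 0.756 and 0.795, and the 153-nt exon of APLP2, a relative of the amyloid precursor protein, at 0.885, 0.881, 0.897 and 0.872. The 63-nt exon of MPRIP, a myosin phosphatase partner, was at 0.195 and 0.22 against 0.252 and 0.27, where the sets did not overlap (FDR 0.196 per the authors' deposited table). The 12-nt exon of DNM2, the dynamin of endocytosis, was at 0.147 and 0.186 against 0.157 and 0.218. The 342-nt exon of SEC31A, a coat protein of vesicles that leave the endoplasmic reticulum, was at 0.939 and 0.917 against 0.873 and 0.888 (FDR 0.0602 per the authors' deposited table), and the 129-nt exon of TSC2 was at 0.16 and 0.194 against 0.0841 and 0.177.

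Of 14 regulators of these exons, 10 had tested events, and 1 of their 60 events was called (1.67%, against 2.71% of all events). That was a 264-nt exon of MBNL2, at 1 in 3 libraries and at 0 in library 2 of the second set, from 5 reads there. Without that library the difference was 0. The 54-nt exon of HNRNPM was at 0.776, 0.763, 0.778 and 0.77 and the 78-nt exon of PTBP1 at 0.838, 0.815, 0.825 and 0.811, from 2922 to 5899 reads per library. The 34-nt exon of PTBP2, whose skipping leaves an mRNA that is degraded, was at 0.449 and 0.457 against 0.565 and 0.352. The 95-nt exon of MBNL1 was at 0.968 and 0.978 against 1 and 0.74, so that its sets overlapped. Limma with precision weights gave the MBNL1 exon an adjusted p of 0.0452. The 152-nt exon of CELF1 was at 0.16 and 0.169 against 0.086 and 0.221. ESRP2, an epithelial regulator, had 9, 7, 4 and 0 reads at its only event, while RBFOX2 had 563, 408, 157 and 290 and QKI 1090, 775, 266 and 193 at their deepest. In RPM, every listed regulator with an event was lower in both libraries of the second set, not these alone. MBNL1 was at 9.92 and 5.54 RPM against 0.77 and 1.12, and PTBP1 at 190 and 177 against 110 and 110. Over all genes the median log2 ratio of first over second set was 0.271.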

How the data were processed

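PolyA RNA of 4 293T samples was sequenced as paired reads, and the authors deposited 1 table of skipped exon events. The submitters' processing notes name cutadapt, STAR and the build hg19, with no versions, roles or order. Those notes name no splicing caller, but the column headers of the deposited events are in the format of rMATS. Per the file headers, each event has deposited counts of inclusion and skipping junction reads in both libraries of each set, the authors' p-value and FDR, and the authors' difference between sets, a score that runs from -1 to 1. Which set was treated was not given in the sources used here.

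From the read counts, inclusion levels with 95% Wilson intervals were recomputed. They matched the deposited levels to within rounding. A called event had at least 20 mean reads, an authors' FDR under 0.05 and a difference of at least 0.1. A quasi-binomial model with limma's variance shrinkage (limma 3.58.1, R 4.3.3) was fitted to all 54503 tested events with Benjamini-Hochberg adjustment. Its p-values measure only the spread between 2 libraries a set of 1 cell line. Genes were named as follows: each member exon between 0.05 and 0.95 (at most 4 a gene) by its deepest event, every called event, and, in the other lists, called events and the deepest alternative exon of 6 genes. ENAH 63 nt, ENAH 57 nt, SLK 93 nt, CTNND1 18 nt, CTNND1 63 nt, SCRIB 75 nt and 81 nt, CSNK1G3 70 nt and TCF7L2 141 nt and 144 nt were named outside that rule, after their values were seen, as were further events of exons already named. In the list of other genes, 1 called event is counted but not reported here by name. The members and lists were chosen with earlier results of these data known. Of the 94 member events, 93 matched an exon of GENCODE release 29, 71 of them with both flanking introns.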

Additional observations from a re-analysis of the deposited data

How the results depend on the processing

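The 9 member calls became 5 when 50 mean reads were required, 5 when each exon counted once by its deepest event, 3 at a difference of at least 0.2 and 1 at an FDR under 0.01, and were 8 to 11 under the remaining settings of the thresholds. Leaving out a library kept 6 to 9 of them at a difference of 0.1 in the same direction, 6 without library 1 of the first set. The 0 member events past the quasi-binomial threshold became 0 to 3 with a library left out, 3 without library 1 of the second set, when 844 events passed in all. The 12 calls in the other genes became 23 at a difference of at least 0.05 and 7 at 0.2. Like the counts of member calls and of regulator calls, these stand without the share of all tested events called at the same setting. They do not tell how the groups compare with all events there. The 1 call in a regulator became 3 with a minimum of 10 mean reads and 0 with 50, and 0 to 1 with a library left out; these settings for the regulators were chosen after seeing the data. Of 178 recomputed differences of named member exons, 158 were counted as changed within the spread between libraries and 20 as changed beyond it. Library 2 of the second set itself widens that spread. With a library left out, the change comes from the gap between the 2 libraries of its set and cannot exceed that spread. Apart from ties, the count was thus fixed beforehand for those settings and does not show how stable the differences are. By ratio, 69 moved by over 1.5 times, 15 of them among the 61 of called events. The sign changed in 15, none of a called event, and 2 of called events became 0. Without library 2 of the second set, NUMB 33 nt went from 0.121 to -0.0683 and ENAH 795 nt from -0.0744 to 0.0731. Without library 1 of that set, TCF7L2 69 nt went from -0.0416 to 0.0886. The share of alternative member events was 29.6% to 34.7%. No paired analysis was possible because the table's columns carry no replicate numbers. A planned edgeR fit was not run, since the table holds its reads as paired values in 1 cell. Events with few reads on the rarer form, and the lower depth of most member genes in the second set, limit the precision.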
